A study of Macaca fascicularis with 1154 samples.

Results

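The 200 most widely detected transcripts were examined in cultured embryos of the cynomolgus monkey (Macaca fascicularis), cell by cell. They were 200 of the 28592 gene IDs in the table, or 0.699% of it. The members were chosen by measured values: in cells with at least 100000 counts and 2000 detected IDs, all IDs were ranked by the number of cells with a value above 0, with ties ordered by mean CPM (counts scaled to the same total in each cell). The ranking left out the IDs ENSMFAG00000000001 to ENSMFAG00000000024 and ENSMFAG00000033907, called the left-out IDs here. Detection and mean CPM are therefore given as a description and support nothing.

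The study asked how the embryonic and extra-embryonic lineages of a primate embryo are specified. Each sample was 1 cell, freed with trypsin, picked by mouth pipette and sequenced with the SMART-seq2 protocol, which reads along whole transcripts and has no molecular identifiers. The labels gave no treatment or genotype. Each gave a day (9, 11, 13, 15, 17, 19 or 20) and a B number whose meaning is not stated. Cells that share both are called a collection, such as E15 B1. Of 1154 samples, 600 had a column in the count table and 554 were not analysed here. The minimums kept 593 cells in 15 collections, with 36, 57, 94, 121, 139, 62 and 84 cells on the 7 days in order. Sample titles were not all written alike: 528 of the 593 cells were in collections whose titles had no dots. The other cells were those of E13 B1 and E17 B1. What the form of a title means is not stated. Its part in differences between collections, including those of the same day, was not tested. The kept cells had 107155 to 18828705 counts each (median 2660370) and 2292 to 10652 detected IDs (median 6753). Whether different collections are different embryos is not stated, and p-values therefore reflect the spread among these collections alone, which can be technical.

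Transcripts found in almost every cell of a tissue commonly come from genes that every cell needs, such as those of protein synthesis, energy metabolism and the cytoskeleton. Such genes are often used as a reference against which other genes are read, although their levels can differ between cell types and with growth. A cultured embryo at these stages holds epiblast, endoderm and trophoblast cells and their descendants. No gene name stands beside an ID in the files, and 0 of the 28592 IDs matched the gene table used for names. The members are therefore described by ID, level and behaviour, and no role is given to any of them. For the same reason the markers of these lineages could not be checked. Counts are of reads, and longer transcripts give more reads, so a CPM ranks members by reads and not by molecules.

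All 593 cells had a count for 161 members, and the other 39 members were each missing in 1 cell. ENSMFAG00000046421 ranked first with a mean of 21024.8 CPM, and ENSMFAG00000046427 followed with 13200.1 CPM. At the other end, ENSMFAG00000032315 ranked 199 (592 cells, 486.7 CPM) and ENSMFAG00000003238 ranked 200 (592 cells, 483.8 CPM). Just outside were ENSMFAG00000032376 (592 cells, 481.3 CPM) and ENSMFAG00000002089 (592 cells, 465.1 CPM). In all, 60 IDs were found in 592 cells, and mean CPM alone kept 21 of them off the list. The lowest mean CPM among members was 282.5, in ENSMFAG00000007410, and the next was 341.5, in ENSMFAG00000037155. Another 253 IDs had a mean CPM at or above that lowest member but ranked lower, with a count in 191 cells at least and 588 at the median.

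Per cell, 565 cells held all 200 members, 20 lacked 1 member, 7 lacked 2, and 1 cell of E19 B2 with 173135 counts lacked 5. The 28 cells that lacked any member had a median of 545418 counts, against 2817024 in the cells with all of them. A count of 0 in these cells allows a level of up to 0.401 to 28.0 CPM, taking 3 counts as the limit and covering counting error only. When each cell was brought to an equal depth of 100000 counts, the expected number of members with a count had a median of 199.3 of 200. The lowest value was 157.1, in a cell of E17 B4 in which the left-out IDs took 26.5% of counts. Collection medians at equal depth were lowest in E19 B1 (189.5) and E15 B3 (189.9), and the other collections lay between 196.2 and 200. At this depth 82 members were expected in more than 99% of cells and 12 in fewer than 95%, the lowest being ENSMFAG00000003238 at 87.9%. Across the 593 cells, which each share 1 library among all IDs, the expected number had a correlation of r = -0.43 with the share of the left-out IDs and r = 0.20 with the log10 total count.

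Inside single collections, 188 (E19 B2) to 200 of the members had a count in every cell. So did 499 (E15 B2) to 3091 (E09 B1) IDs of the table, and mean CPM therefore decided each collection's own top 200. Ranked again in 1 collection at a time, 131 (E20 B2) to 159 of the 200 members were in that collection's own top 200. Ranked by day, 154 to 169 were, with 274 (day 15) to 1961 (day 11) IDs in every cell. These overlaps thus reflect levels rather than detection.

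The 200 members took a median of 36.7% of a cell's counts, with the middle cells (25th to 75th percentile) between 29.2% and 43.0%. The collection medians of the 14 collections holding 10 or more kept cells ran from 25.7% in E15 B3 to 44.2% in E20 B1 (mean 35.5% ± 6.80, SD, n = 14 collections). The medians of collections of 1 day differed by 3.73 to 16.4 percentage points on the 5 days that had more than 1. On day 13 the medians were 31.5% in E13 B1 and 27.8% in E13 B2. On day 15 they were 42.0% in E15 B1, 30.3% in E15 B2 and 25.7% in E15 B3. On day 17 they were 34.5% in E17 B1, 32.4% in E17 B4 and 40.7% in E17 B5. On day 19 they were 27.3% in E19 B1 and 42.3% in E19 B2, and on day 20 they were 44.2% in E20 B1 and 31.5% in E20 B2. Day 9 had 43.2% in E09 B2 and day 11 had 43.0% in E11 B2, each the only collection of its day with 10 kept cells, so day and collection cannot be told apart there. No day stood apart from the range of the collections on the other days.

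Single cells ranged more widely, from 4.10% to 81.4%. In the lowest cell, from E17 B4, the left-out IDs took 87.3% of counts. In the highest cell, from E11 B2 with 653252 counts, 10 members described next took 76.8% and the other 190 took 4.59%. The left-out IDs took a median of 6.57% of a cell's counts (0.0343% to 87.3%) and at least 20% in 104 cells. With the left-out IDs removed from each cell's total, the members took a median of 40.3% (9.51% to 90.5%).

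**Figure D1:**
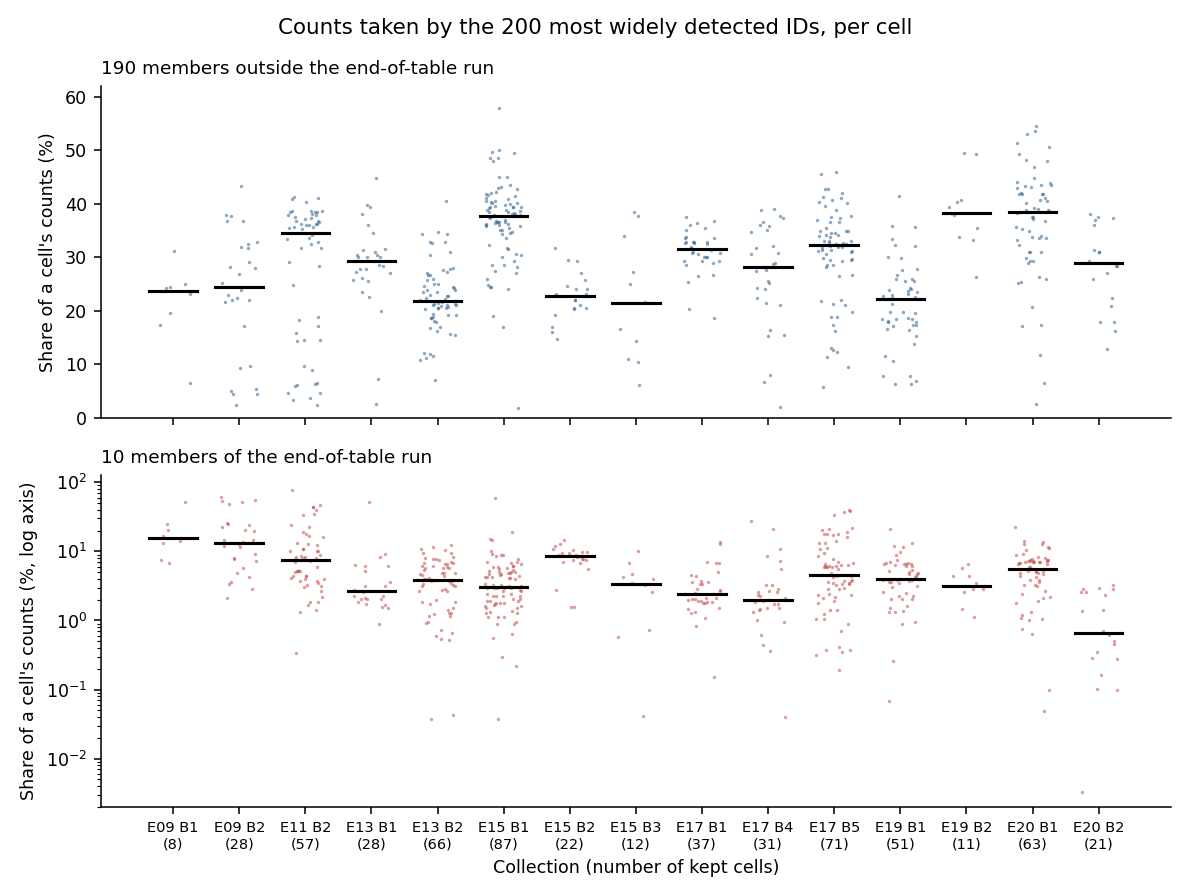
Share of each cell's counts, in percent, taken by the 190 members outside a run of IDs at the end of the table (top, linear axis) and by the 10 members in that run (bottom, log axis), by collection with the number of kept cells in parentheses; points are cells and bars are medians. The 190 members' medians range from 21.5% in E15 B3 to 38.5% in E20 B1, and the run's medians are highest in E09 B1 (15.4%) and E09 B2 (13.2%) and lowest in E20 B2 (0.665%).

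A set of 10 members with neighbouring IDs is described apart from the other 190, and was picked out after its values were seen. The last 13 IDs of the table run without a gap from ENSMFAG00000046415 to ENSMFAG00000046427, and 10 of the 13 were members. The remaining 3 narrowly missed the list: ENSMFAG00000046419 was found in 588 cells, ENSMFAG00000046422 in 585 and ENSMFAG00000046426 in 584. The 10 IDs that precede the run in the table were found in at most 261 cells. Of the 10 members with the highest mean CPM, 5 were in the run.

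The run's 10 members together took a median of 3.99% of a cell's counts, with single cells between 0.00327% and 76.8%. They took at least 20% in 36 cells and at least 50% in 8 cells. The collection medians were 15.4% in E09 B1 and 13.2% in E09 B2 on day 9, and 7.60% in E11 B2 on day 11. From day 13 on, they lay between 1.97% and 8.56% in every collection but E20 B2, where the median was 0.665%. E15 B2 (8.56%) was above E11 B2, so the days overlapped. ENSMFAG00000046421, the member with the most reads, had 6.63 CPM in its lowest cell, a median of 9704.7 CPM and 519277 CPM in its highest cell. In E20 B2, 5 of the 10 run members were in the collection's own top 200, against 8 to 10 in the others. Mean CPM decided these places, so the count restates the run's low level there.

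The shares of the run and of the other members were inversely related across cells. In 14 of 14 collections the correlation between the run's share and the share of the other 190 members was below 0 (r = -0.44 over all 593 cells). Shares of 1 total cannot all rise together, and that part was not tested. A remainder was taken by removing all IDs of the run and ENSMFAG00000000001 to ENSMFAG00000000024 from the total, while ENSMFAG00000033907 stayed in it. The 190 members' share of this remainder had r = -0.09 with the run's share over all cells, below 0 in 12 of 14 collections. The share of the left-out IDs had r = -0.65 with that of the 190 members (below 0 in 14 of 14 collections). With that of the run it had r = 0.23 (above 0 in 13 of 14). Against the 190 members' share of the same remainder it had r = -0.17 over all cells, below 0 in 11 collections and above 0 in 3.

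Levels of single members spread widely between cells. The SD of log2(CPM + 1) over the 593 cells had a median of 1.91 over the 200 members (1.13 to 2.93), and the coefficient of variation of CPM had a median of 86.2% (58.7% to 205.9%). ENSMFAG00000032199 was the most even member, with an SD of 1.13. Its lowest cell had 61.0 CPM, its median cell 3757.6 CPM and its highest cell 16546.6 CPM. ENSMFAG00000046032 was next with an SD of 1.24 and 35.6, 2879.2 and 11634.7 CPM in the same order. ENSMFAG00000045551 was the least even member with an SD of 2.93. It was at 0 in 1 cell of E19 B2 (up to 5.55 CPM at that cell's depth), at a median of 279.4 CPM, and at 15612.1 CPM in its highest cell. ENSMFAG00000003238, the last member by rank, had an SD of 2.86.

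Over all 6251 IDs found in at least 50% of cells, the median SD was 2.64, and 3 of the 200 members were above it. The order depends on how values near 0 are treated: with 10 in place of 1 added to the CPM, the members' median SD was 1.76 and that of all 6251 IDs was 1.52. A count in nearly every cell was a condition for membership, so a lower SD than in IDs with many zeros is partly set by the rule. Without the 104 cells in which the left-out IDs took at least 20% of counts, the members' median SD was 1.52, while that of all IDs was 2.62.

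**Figure D2:**
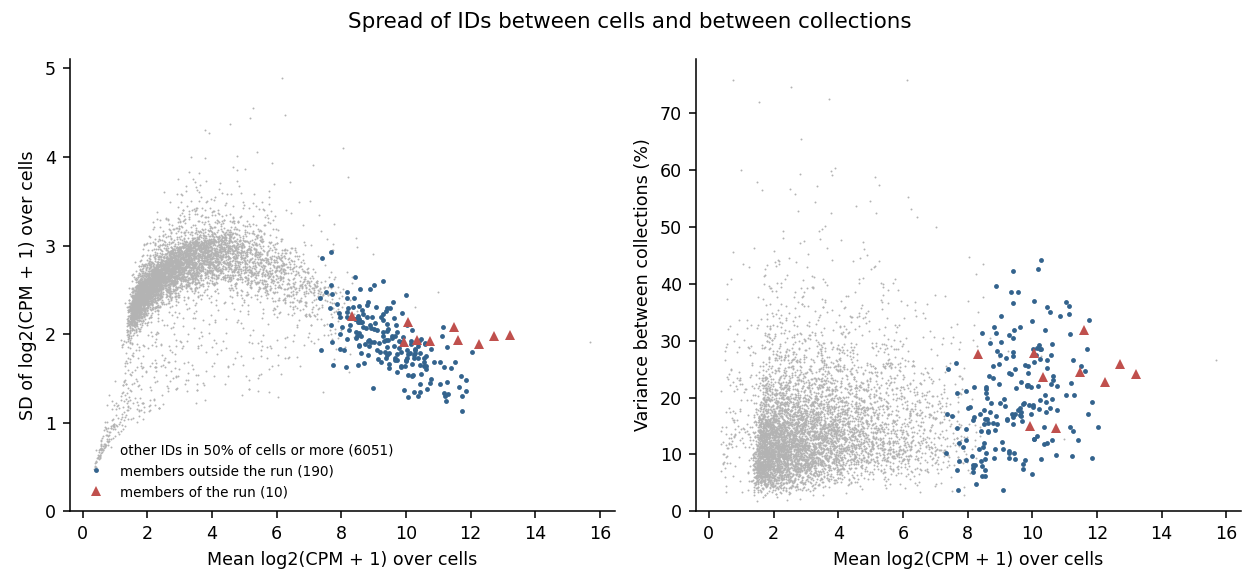
SD over 593 cells of log2(CPM + 1) (left) and percent of the variance of log2(CPM + 1) between 14 collections (right) against the mean log2(CPM + 1), for every ID found in at least 50% of cells; grey points are other IDs, blue points the 190 members outside the run and red triangles the 10 run members. The members lie at the right of the cloud of IDs, with SDs of 1.13 to 2.93 and 3.75% to 44.1% of their variance between collections.

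Most of this spread was inside collections. The share of the variance of log2(CPM + 1) between the 14 collections (585 cells) had a median of 19.0% over members, against 13.3% over all 6251 IDs. A count in nearly every cell was a condition for membership, while the 6251 IDs include some with many zeros. The part of those zeros in this and the following contrasts was not tested. For each of the 200 members, more than 50% of the variance was between cells of the same collection. The part between days had a median of 9.41% and the part between collections of the same day 8.88%, against 6.46% and 6.53% over all 6251 IDs. This balance depended on the cells used: the parts were 12.9% and 5.87% in the 551 cells with at least 4000 detected IDs, and 9.77% and 12.7% in the 489 cells with under 20% of counts in the left-out IDs. Days held more than collections of a day did in 88 of 200 members (44.0%), a share close to that over all these IDs (47.7%). The part between days also holds differences between collections, as the mean of a day rests on 1 to 3 collections. Days 9 and 11 had 1 each, so their collection differences all fall in the day part. The 2 parts therefore do not weigh days against collections.

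ENSMFAG00000002215 had the largest part between collections, at 44.1%. On counts summed per collection and scaled by the trimmed mean of M-values (TMM), a method that sets libraries on a common scale, its levels ran from 673.6 CPM in E20 B2 over a median of 1057 CPM to 5814 CPM in E20 B1. E11 B2 (4495 CPM) and E15 B1 (3813 CPM) were the next highest, and the other 11 collections were at or under the 1833 CPM of E09 B2. The highest and the lowest collection were thus of the same day. ENSMFAG00000042652 was second at 42.7%, and again E20 B1 was highest, at 5351 CPM, with E13 B2 lowest at 613.8 CPM. The members with the smallest part between collections were ENSMFAG00000045002 at 3.75% and ENSMFAG00000039738 at 3.83%. The former nevertheless ran from 534.1 CPM in E17 B1 to 1870 CPM in E17 B4.

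The ratio of the highest to the lowest collection, on the mean CPM over cells, had a median of 4.60 over members (1.82 to 35.8). It was under 3 for 31 members and at least 10 for 25. E19 B2, with 11 kept cells, was the highest collection for 53 members, followed by E20 B1 for 34 and E15 B1 for 26. E19 B1 was the lowest for 42 members, followed by E09 B2 and E15 B2 for 24 each. The collections at both extremes for the most members were therefore of the same day. E19 B2 was also the lowest for 19 members, and E19 B1 the highest for 3. The same counts over all IDs are not given here. The left-out IDs took a median of 3.96% of a cell's counts in E19 B2 and 13.2% in E19 B1. Their part in these extremes was not tested.

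Most pairs of members were positively correlated from cell to cell. After each collection's mean was taken out, the 19900 pairs of members had a median Pearson r of 0.34 (-0.37 to 0.90) over 585 cells, and 89.3% of pairs were above 0. These correlations describe cells that share a library and a total, and no value over other IDs is set beside them. They were smaller with the left-out IDs removed from the totals (median r = 0.23). The highest pair was ENSMFAG00000045026 and ENSMFAG00000033055 (r = 0.90). The counts of the latter were a median of 0.164 times those of the former, with 5% to 95% of cells between 0.0362 and 0.263. Whether the pair shares reads, as near-identical genes can, was not tested. The second pair, ENSMFAG00000046421 and ENSMFAG00000046418 (r = 0.89), lay in the run.

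Grouping on these correlations, with 8 groups set after the data had been looked at, gave a group of 172 members, a pair of groups of 10, a group of 4 and 4 members alone. The run formed 1 of the groups of 10 with no member missing and none added. Its members had a median r of 0.77 with each other (lowest 0.65) and of -0.10 with the other 190, whose median r among themselves was 0.35. The lowest median correlations with the list were those of ENSMFAG00000046425 (-0.15) and ENSMFAG00000046421 (-0.15). The run's 3 IDs that were not members had median r values of 0.75, 0.60 and 0.66 with the run's members, in the order given above.

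**Figure D3:**
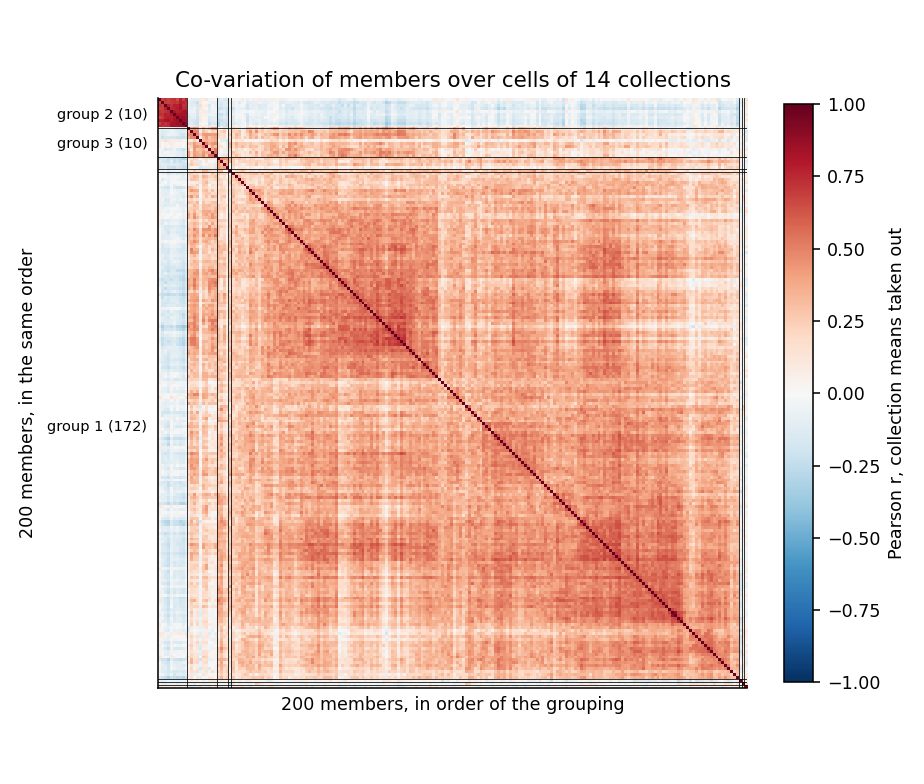
Pearson correlation of log2(CPM + 1) between the 200 members over 585 cells with collection means taken out, in the order of the grouping; red is above 0, blue is below 0, and lines separate the 8 groups. The run (group 2, 10 members) is a dark red block with pale blue bands against the other members, and 172 members form 1 broad red block.

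At a finer cut, the group of 172 held a set of 99 members and a set of 60. The cut was the first at which it gave 2 sets of at least 20 members, and it was also made after seeing the data, so the sets get no test. Inside the sets the median r was 0.43 and 0.46, and between them it was 0.35. As a share of counts outside the left-out IDs, the set of 99 had collection medians from 12.9% to 20.0%, a ratio of 1.55. The set of 60 had a ratio of 2.93, from 7.04% in E15 B2 to 20.6% in E19 B2. Its members had a median of 27.1% of their variance between collections, against 15.4% in the set of 99. Of the 20 members with the most variance between collections, 16 were in the set of 60 and 2 in the set of 99. ENSMFAG00000002215 and ENSMFAG00000042652 were both in the set of 60, as were the most even members, ENSMFAG00000032199 and ENSMFAG00000046032.

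The balance of the sets differed between collections of the same day. The counts of the set of 60 over those of the set of 99 had a median of 0.709 over all cells. On day 13 the medians were 1.07 in E13 B1 and 0.471 in E13 B2. On day 15 they ran from 0.428 in E15 B2 to 0.783 in E15 B1, and on day 17 from 0.424 in E17 B4 to 0.768 in E17 B5. On day 19 they were 0.467 in E19 B1 and 1.87 in E19 B2, and on day 20 they were 0.996 in E20 B1 and 0.439 in E20 B2. The ratio was above 1 in 141 cells. Depth moved with it: the correlation of the ratio with the log10 total count was -0.42 over all cells and below 0 in 14 of 14 collections (-0.88 to -0.10), and its part in the differences was not tested. Without the 104 cells dominated by left-out IDs, the medians of E19 B1 and E19 B2 were 0.462 and 1.78, and those of E20 B1 and E20 B2 were 0.955 and 0.439.

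**Figure D4:**
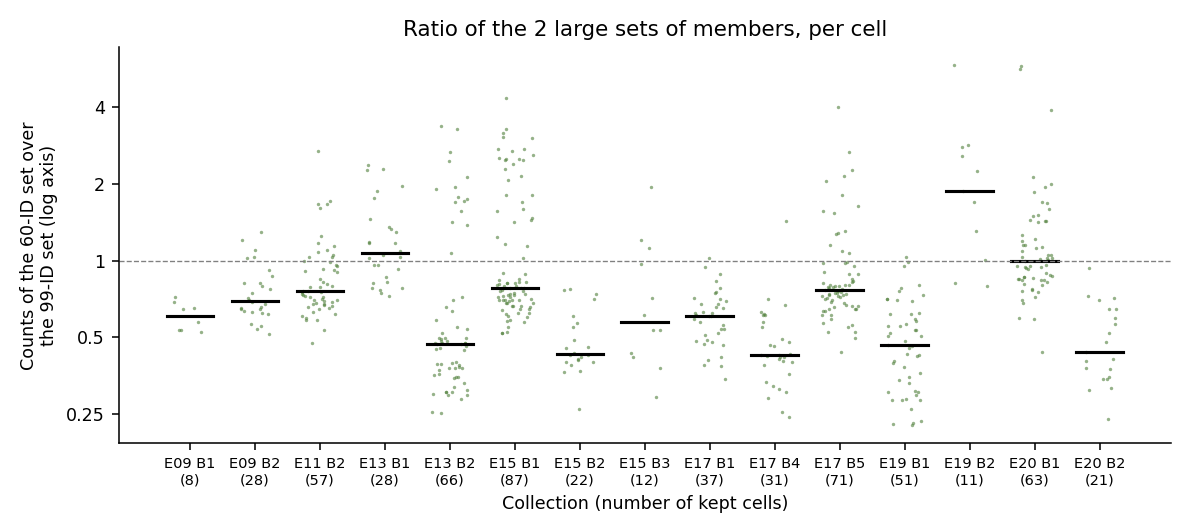
Counts of the 60-member set divided by counts of the 99-member set in each cell (log axis), by collection with the number of kept cells in parentheses; points are cells, bars are medians and the dashed line marks a ratio of 1. Medians range from 0.424 in E17 B4 to 1.87 in E19 B2. Several collections hold some cells well above their median, among them E13 B2, E15 B1, E17 B5 and E20 B1.

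No member passed the test for a change with the day. Counts were summed over the cells of each of the 14 collections, without E09 B1 and its 8 kept cells, and fitted with edgeR's quasi-likelihood test with the day as a number, adjusted with the Benjamini-Hochberg method over all 16005 IDs tested. All 200 members were tested and 0 had an adjusted p under 0.05, in a table in which 0.0125% of IDs did (0.00625% with a slope above 0 and 0.00625% below 0). At an unadjusted p under 0.05 there were 12 members, or 6.00%, close to the 5.64% of all IDs. Of the 12, 3 had slopes above 0 and 9 below, 6 of the 9 in the run. DESeq2 also called 0 members. So did limma, fitted to each collection's mean log2(CPM + 1) over cells and not to summed counts. Slopes ran from -0.22 to 0.15 log2 units per day with a median of -0.01 and a median SE of 0.06, and the median slope over all IDs was 0.00. Slopes were above 0 in 88 members and below 0 in 112, a split that turned to 104 and 96 with DESeq2's size factors (RLE) in place of TMM. Single collections moved it further in both directions, to 138 above and 62 below 0 without E11 B2, to 134 and 66 without E20 B2, and to 52 and 148 without E20 B1.

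The slopes of the run were below 0 for 10 of 10 members, from -0.22 to -0.11 per day, and none passed the test. The run was picked out after its values were seen, and its members rose and fell together between cells (median r = 0.77). The 10 slopes are therefore not 10 separate observations. ENSMFAG00000046427 had the smallest p of all members (slope -0.21 ± 0.05, SE, n = 14 collections, edgeR adjusted p = 0.327). Its TMM-scaled level was 35066 CPM in E09 B2 and 27246 CPM in E11 B2, and between 1701 CPM (E20 B2) and 18129 CPM (E15 B2) in the 12 later collections. Both early collections were above all the later ones, but each was the only collection of its day in the fit. Without E09 B2 its slope was -0.19 with an adjusted p of 1.00 in edgeR's test. Other slopes of the run rested more on E09 B2. Without it, the slope of ENSMFAG00000046421 went from -0.15 to -0.07, that of ENSMFAG00000046418 from -0.13 to -0.06, that of ENSMFAG00000046417 from -0.11 to -0.05 and that of ENSMFAG00000046420 from -0.18 to -0.12. Without E11 B2, that of ENSMFAG00000046423 went from -0.11 to -0.05. Without E20 B1, the slopes were steeper for ENSMFAG00000046423 (-0.23), ENSMFAG00000046421 (-0.23) and ENSMFAG00000046418 (-0.19). The run summed to 176866 TMM-scaled CPM in E09 B2, 119745 CPM in E11 B2 and 9411 to 75808 CPM later. The lowest and the highest of the later values were both from day 20. TMM-scaled CPM do not add up to the same total in each collection, so these sums are not shares of counts.

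Among the other 190 members, ENSMFAG00000042853 had the smallest p with a slope below 0 (-0.16 ± 0.05, edgeR adjusted p = 0.515). It ran from 285.1 CPM in E17 B1 over a median of 1086 CPM to 3709 CPM in E09 B2. Above 0, ENSMFAG00000032800 (0.15 ± 0.06, edgeR adjusted p = 0.675) ran from 606.2 CPM in E09 B2 over a median of 2103 CPM to 4691 CPM in E17 B1. ENSMFAG00000003050 (0.15 ± 0.06, edgeR adjusted p = 0.697) ran from 735.6 CPM in E15 B2 over a median of 2023 CPM to 5794 CPM in E19 B2. The slopes of the former pair rested in part on E09 B2, without which they were -0.11 and 0.11, and that of ENSMFAG00000003050 on E19 B2, without which it was 0.11.

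A test for any difference between days, larger than the spread between collections of a day, called 0 of 200 members and 0% of the 18797 IDs tested (edgeR's quasi-likelihood test, Benjamini-Hochberg adjustment). At an unadjusted p under 0.05 there was 1 member of 200, against 3.74% of all IDs. That member was ENSMFAG00000044845 (edgeR adjusted p = 0.961), at 2884 CPM in E09 B2 and at 352.4 to 1180 CPM in the other 13 collections. ENSMFAG00000000818 followed (edgeR adjusted p = 0.961), with 339.6 CPM in E11 B2 and up to 4071 CPM in E15 B2. DESeq2 on summed counts and limma on mean log2(CPM + 1) called 0 members here too. For ENSMFAG00000044845, the adjusted p was 0.0504 in DESeq2 and 1.00 in limma, and without E09 B2, its highest collection, it was 1.00 in edgeR's test (unadjusted p = 0.370). A p that misses the threshold does not show that levels were equal: with a median SE of 0.06 per day, slopes of the size seen in the run did not pass.

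**Figure D5:**
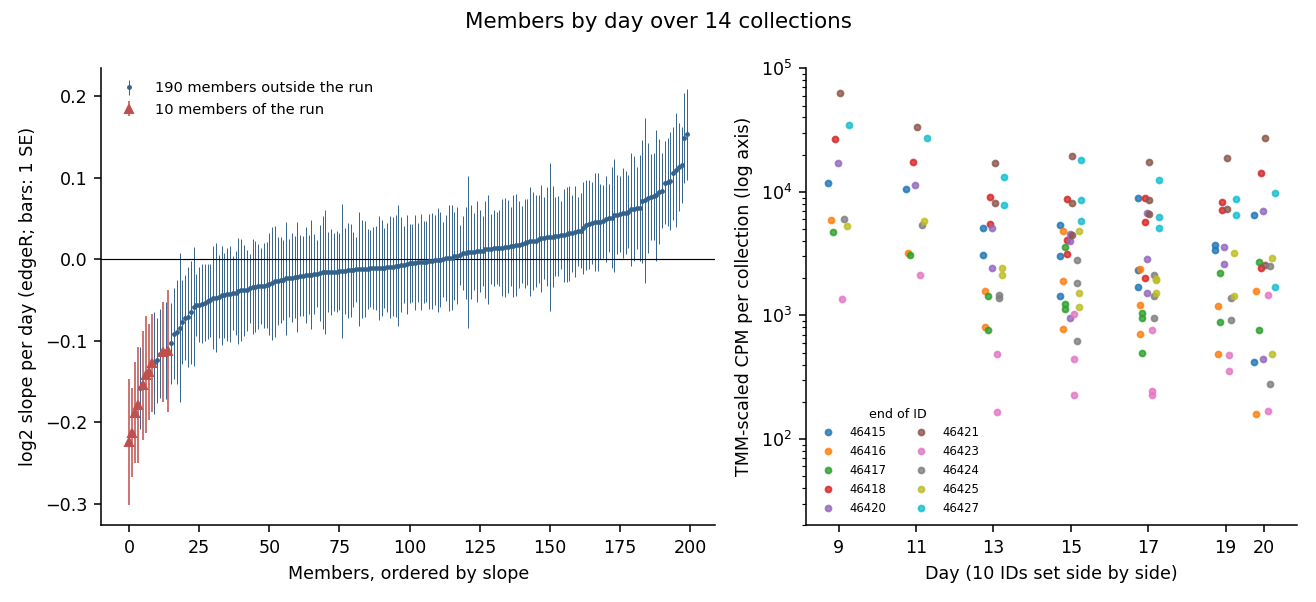
Left, log2 slope per day of each of the 200 members from edgeR with bars of 1 SE, ordered by slope (blue, 190 members outside the run; red triangles, 10 run members); right, TMM-scaled CPM per collection (log axis) of the 10 run members by day, labelled by the last digits of the ID. Slopes run from -0.22 to 0.15 with the 10 run members below 0, and the run's levels are mostly highest in E09 B2 and E11 B2, the only fitted collections of days 9 and 11, and spread widely among collections of each later day.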

How the data were processed

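The submitters' processing notes name STAR 2.3.4 and RSEM. The genome build and gene annotation were not given in the sources used here. For each cell, the authors deposited estimated counts by gene ID without normalization, and 2.23% of all values were not whole (tolerance 1e-06). Cells under the minimums (7) were left out. CPM used each cell's total over all IDs. The 5 figures and all descriptions used log2(CPM + 1) or shares of counts per cell. For tests, counts were summed per collection (14 collections with at least 10 kept cells, sums of 14136614 to 361719555), rounded to whole numbers and fitted with edgeR 4.0.16 (R 4.3.3; TMM, filterByExpr, threshold 0.05). DESeq2 1.42.0, limma 3.58.1, other filters, scalings, cell sets and left-out collections were alternatives. For limma, the input was the mean log2(CPM + 1) over the cells of each collection, not summed counts. The SE of an edgeR slope was computed as the slope's size divided by the square root of its F value. The scripts were tested on simulated data. No 2 columns were identical.

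The members and lists were chosen with earlier results of these data known. IDs are named by a rule: at most 2 at each end of each measure. IDs of the run and the sets were singled out after their values were seen. Planned counts of gene lists and markers were not made, as 0 IDs matched a gene name. No sequence was used here.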

Additional observations from a re-analysis of the deposited data

How the results depend on the processing

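Between 177 and 200 members stayed on the list under the 24 alternatives to the ranking. The lowest was with at least 10 CPM asked for a detection, and leaving out each collection in turn gave 184 to 200. Leaving out each collection gave a median share of counts of 34.6% to 38.5%, a median SD of 1.79 to 1.97, and 17.5% to 19.8% of variance between collections. The last of these moved from 19.0% to 23.9% without the cells dominated by left-out IDs. The other alternatives kept it between 17.5% and 20.4%. In 26 alternatives for the day and 25 between days, 0 members were called, with 3 to 26 and 0 to 11 at an unadjusted p under 0.05. The smallest adjusted p among members was 0.0760 and 0.0504, both from DESeq2. Leaving out E09 B2 lowered the members at an unadjusted p under 0.05 with the day from 12 to 3, and leaving out E20 B1 raised them to 24. Over all IDs, calls with the day moved from 2 (edgeR) to 166 (DESeq2), and between days from 0 to 259 (DESeq2), 141 (limma), 80 (no filter) and 68 (4000 detected IDs asked of a cell).

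With the B number as a replicate block, 0 members were called with the day (7 at an unadjusted p under 0.05) and 0 between days. Deviations of collections sharing a B number had r above 0.1 in 5 of 16 pairs (-0.38 to 0.23). Where a day had 2 collections, their deviations mirrored each other, so some values repeat (r = 0.23 between days 13 and 20 for both B1 and B2). These values therefore cannot decide whether the B numbers pair the collections, and the numbers were not treated as doing so. Detection is limited in cells of low depth, and the tests by the number of collections (14).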
